A study of Mus musculus with 8 samples.

Results

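CD8+ T cells carrying UMIs of both Pdcd1 and Tox were found in each of the 8 libraries of tumor-infiltrating leukocytes analysed here. They numbered 831 out of 15700 deposited cell barcodes. They were chosen by their transcripts. Of the barcodes, 12828 passed limits on detected genes, UMIs (unique molecular identifiers, each standing for 1 captured transcript), ribosomal and mitochondrial content. Of these, 4673 were gated as CD8+ T cells, because they carried Cd8a or Cd8b1 together with a CD3 chain (Cd3d, Cd3e or Cd3g) and no UMI of Cd4, Lyz2, Cd79a or Ncr1. A member had in addition at least 1 UMI of Pdcd1 and at least 1 of Tox, none of the proliferation gene Mki67, and fewer than 3 of Gzmc, Gzmd, Gzme, Gzmf and Gzmg together. The members are called co-positive cells here, and the levels of Pdcd1 and Tox in them are a description of that choice.

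The cells came from C57BL/6 mice bearing B16-OVA tumors, a melanoma line that expresses the model antigen ovalbumin. CD45+ infiltrating cells were sorted with enrichment for CD8+ T cells and profiled with the 10x Genomics 5′ assay. The mice were 7 weeks of age at tumor injection and, as the study describes, received no lymphodepletion. Adoptive cell transfer (ACT) used OT1 CD8+ T cells, whose receptor recognises an ovalbumin peptide. Untransduced OT1 cells were given in the libraries of days 5 and 12. OT1 cells secreting PD1d and IL-2v, and OT1 cells secreting PD1d and IL-33, were each profiled on day 12. PD1d/IL-2v/IL-33 ACT, called orthogonal by the study, gave both of these kinds of engineered OT1 cells, mixed in equal parts. It was profiled on days 5, 12 and 26, and 1 library came from non-treated tumors, labelled day 5. PD1d is a secreted PD-1 ectodomain fused to an Fc part, so the engineered cells carry a Pdcd1-derived transgene, and whether it added to the Pdcd1 UMIs was not tested. IL-33 is an alarmin cytokine. IL-2v is a mutated IL-2 made to signal without CD25, the chain that gives the IL-2 receptor its high affinity. The tumors of 5 mice were pooled for each library, and there was 1 library per condition and day. Transferred and host CD8+ T cells could not be told apart in these counts.

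PD-1, the product of Pdcd1, is a receptor that dampens signalling from the T cell receptor once it meets PD-L1 on other cells. TOX is a nuclear factor induced by sustained calcium and NFAT signalling, and it is needed for the exhausted state that CD8+ T cells take on in tumors and chronic infection. That state is known to hold a Tcf7-expressing pool that self-renews and a Havcr2-expressing pool that is terminally differentiated, and it is marked by several inhibitory receptors at once.

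Co-positive cells made up 17.8% of gated CD8+ T cells over all libraries, and their share differed between libraries. It was 34.3% in non-treated tumors (24 of 70 cells, exact Clopper-Pearson 95% interval 23.3% to 46.6%) and 25.7% after untransduced ACT on day 5 (105 of 408, 21.6% to 30.3%). On day 5 after PD1d/IL-2v/IL-33 ACT it was 10.5% (51 of 485, 7.93% to 13.6%). That interval lay wholly below both of the others of day 5. On day 12 the share was 22.5% after PD1d/IL-33 ACT (80 of 355, 18.3% to 27.2%), 13.2% after PD1d/IL-2v ACT (62 of 469, 10.3% to 16.6%) and 7.32% after PD1d/IL-2v/IL-33 ACT (51 of 697, 5.50% to 9.51%). These 3 intervals did not overlap. Untransduced ACT on day 12 had 13.5% (5 of 37, 4.54% to 28.8%), an interval that spans all of those shares except the 34.3% of non-treated tumors. On day 26 after PD1d/IL-2v/IL-33 ACT the share was 21.1% (453 of 2152, 19.3% to 22.8%), above that of day 12 by more than counting error. The intervals cover counting error only, and with 1 library per condition and day no difference between libraries was tested.

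**Figure D1:**
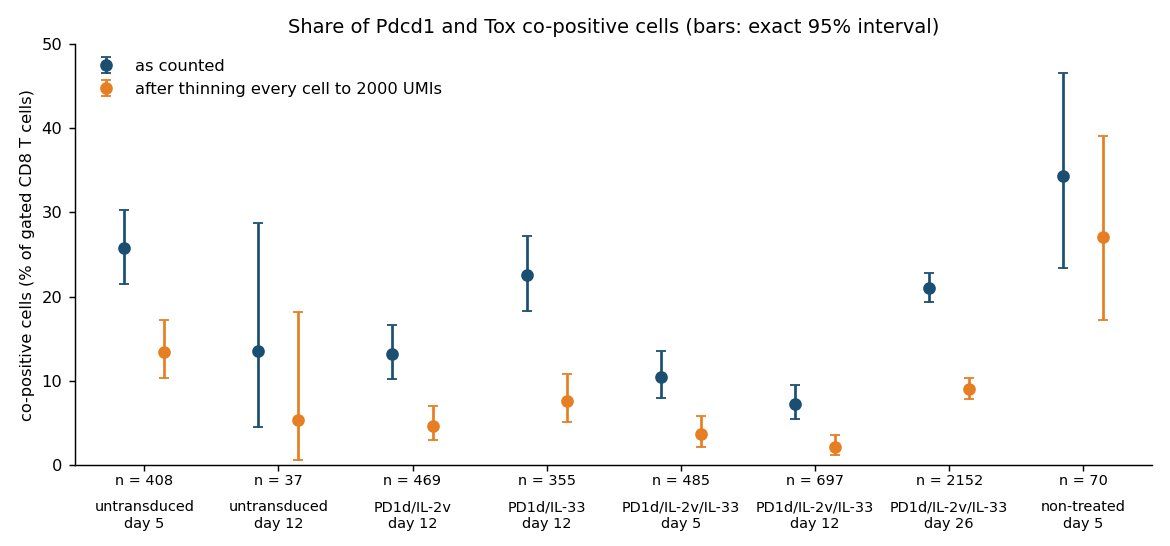
Share of co-positive cells among gated CD8+ T cells in each of the 8 libraries (vertical axis, percent), as counted and after every cell was thinned to 2000 UMIs, with exact 95% intervals and n, the number of gated CD8+ T cells, under each point. The share as counted runs from 7.32% on day 12 after PD1d/IL-2v/IL-33 ACT to 34.3% in non-treated tumors, and thinning lowers every value.

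The share depended on sequencing depth, because UMIs of both genes had to be caught in the same cell. When each cell was thinned to 2000 UMIs before the rule was applied, the share fell to 7.55% over all libraries. The thinned share was 27.1% in non-treated tumors, 13.5% after untransduced ACT on day 5 and 9.06% on day 26 after PD1d/IL-2v/IL-33 ACT. It was 7.61% after PD1d/IL-33 ACT, 5.41% after untransduced ACT on day 12, 4.69% after PD1d/IL-2v ACT, 3.71% on day 5 and 2.15% on day 12 after PD1d/IL-2v/IL-33 ACT. The library with the lowest and the one with the highest share were thus the same at equal depth, while among the day 12 libraries that received engineered cells the thinned interval of PD1d/IL-2v overlapped both of the others. As a partial measure of free RNA, the Pdcd1 and Tox conditions alone, without the CD8 gate, were applied to 1213 cells with at least 3 UMIs of the myeloid gene Lyz2 and none of Cd3d, Cd3e or Cd3g. None carried both genes, 0 of 1213, which allows a share of up to 0.247% by a limit of 3 counts (median 9278 UMIs per cell, against 6693 in co-positive cells). Within single libraries the same limit ran from 1.06% to 21.4%, and in 3 libraries it lay above the thinned share. It was 2.83% for day 12 after PD1d/IL-2v/IL-33 ACT, 7.89% for PD1d/IL-33 and 21.4% for day 12 after untransduced ACT, where it also exceeded the share as counted, 13.5%. Myeloid cells that had caught free RNA of a CD3 chain were left out of this measure beforehand. All of these limits can therefore be too low, and the part of free RNA in the shares was not tested.

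Among Pdcd1-positive cells that passed the Mki67 and granzyme conditions, the part that also carried Tox had its lowest values after PD1d/IL-2v/IL-33 ACT on days 5 and 12, although the interval of untransduced ACT on day 12 was too wide to be set apart (41.7%, 5 of 12 cells, 15.2% to 72.3%). It was 32.1% on day 5 (24.9% to 39.9%) and 25.4% on day 12 (19.5% to 32.0%), against 59.0% after untransduced ACT on day 5 (51.4% to 66.3%). It was 56.4% after PD1d/IL-2v ACT (46.6% to 65.8%), 62.5% after PD1d/IL-33 ACT (53.5% to 70.9%), 49.1% on day 26 (45.8% to 52.4%) and 60% in non-treated tumors (43.3% to 75.1%). After thinning, the value was 16.7% on day 5 (10.2% to 25.1%) and 10.9% on day 12 (6.26% to 17.4%) for PD1d/IL-2v/IL-33 ACT. The thinned values were 28.5% (22.2% to 35.4%) for untransduced ACT on day 5, 22.7% (14.8% to 32.3%) for PD1d/IL-2v ACT and 31.4% (21.8% to 42.3%) for PD1d/IL-33 ACT, so at equal depth the interval of PD1d/IL-2v/IL-33 ACT overlapped that of untransduced ACT on day 5 and that of PD1d/IL-2v ACT on day 12. The thinned values of day 26, 29.5% (26.0% to 33.1%), and of non-treated tumors, 48.7% (32.4% to 65.2%), lay wholly above those of days 5 and 12 after PD1d/IL-2v/IL-33 ACT.

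Many cells sat at the edge of the rule. The median member had 4 Pdcd1 and 2 Tox UMIs. Exactly 1 Pdcd1 UMI was found in 171 members (20.6%), exactly 1 Tox UMI in 396 (47.7%), and exactly 1 of each in 106 (12.8%). Just outside, 237 co-positive cells were left out for a Mki67 UMI, of which 90 had exactly 1, and 11 more for granzyme UMIs. Without these conditions there would be 1079 cells. Granzyme UMIs were at 0 in 802 members, at 1 in 25 and at 2 in 4. A cell with no Tox UMI may still express Tox, so the 920 Pdcd1-positive Tox-zero cells compared below are cells with fewer Tox transcripts caught, not cells shown to lack it.

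T cell markers that the gate did not use were also counted. Thy1 was detected in 98.1% of members, Lck in 97.0% and Cd2 in 86.6%, against 5.11%, 4.12% and 2.39% of the Lyz2-positive cells. Members were required to carry a CD3 chain and the Lyz2-positive cells to lack it, so this contrast follows largely from the choice of cells. The other label genes were less even. Lag3, an inhibitory receptor, had a UMI in 58.2% of members (34.2% after thinning), against 35.9% of Pdcd1-positive Tox-zero cells (18.8% thinned) and 12.9% of cells with neither gene (5.77% thinned). Rgs16, a regulator of G-protein signalling induced by activation, was detected in 52.8% of members. Cd200, an immunoregulatory ligand, was detected in 18.3%, and Nrn1, neuritin, in 16.1%. Nrn1 and Cd200 therefore marked a minority of the co-positive cells at this depth, and their levels varied widely by library.

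Values are given below as CPM, UMIs of a gene per 1000000 UMIs summed over the cells of a class in a library. Over the 7 libraries with at least 20 members, Pdcd1 ranged from 455 CPM (PD1d/IL-2v/IL-33 ACT, day 5) to 1319 CPM (untransduced ACT, day 5), with a median of 721. Tox ranged from 213 to 408 CPM, with a median of 248, and was highest in non-treated tumors. Both ranges are bounded below by the rule, which required a UMI of both genes.

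The 4 further label genes had their own orders. Lag3 ran from 137 CPM after PD1d/IL-33 ACT to 578 CPM after untransduced ACT on day 5, with 249 CPM on day 26, 306 and 355 CPM on days 12 and 5 after PD1d/IL-2v/IL-33 ACT, 448 CPM for PD1d/IL-2v and 473 CPM in non-treated tumors. Nrn1 was at 218 CPM after untransduced ACT on day 5 and at 107 CPM after PD1d/IL-2v ACT. It was at 63.7 CPM on day 26, 36.4 CPM in non-treated tumors, 23.2 CPM after PD1d/IL-33 ACT, and 13.4 and 6.79 CPM on days 5 and 12 after PD1d/IL-2v/IL-33 ACT, where the last value rests on 3 UMIs. Nrn1 was found in 45 of 105 members after untransduced ACT on day 5 and in 3 of 51 on either of those 2 days. Cd200 was highest after untransduced ACT on day 5, at 96.7 CPM, and lay between 24.9 and 53.7 CPM in the other 6 libraries. Rgs16 lay between 316 CPM (PD1d/IL-33 ACT) and 1005 CPM (non-treated tumors).

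Markers of most other cells were low in the members. Those of dendritic cells and of regulatory and CD4 T cells were higher than in the comparators when summed over all libraries, but not in every library. Summed over all members, 7 macrophage markers reached 24.4 CPM (Cd68 the most abundant, Adgre1 at 0), 3 B cell markers 3.76 CPM (Cd79b the most abundant), 3 neutrophil markers 3.76 CPM (Csf3r at 0), 5 melanocyte markers 1.65 CPM (Tyr at 0) and 4 erythrocyte markers 1.20 CPM (Hbb-bt at 0). The 4 NK cell markers summed to 90.2 CPM, of which Klre1 gave 88.9. The 4 regulatory and CD4 T cell markers summed to 72.2 CPM, against 54.8 CPM in Pdcd1-positive Tox-zero cells and 35.9 CPM in cells with neither gene, and 27 members carried at least 2 of them. Tnfsf11, the ligand RANKL, led them at 39.1 CPM and was higher than in cells with neither gene by 1.90 ± 0.29 (edgeR adjusted p = 0.000460, 6 of 6 libraries). The 6 dendritic cell markers summed to 264 CPM in members, 97.6 CPM in Pdcd1-positive Tox-zero cells and 132 CPM in cells with neither gene. Of this sum, Cd74 gave 197 CPM, and 24 members carried at least 2 of the markers. Cd74 was at 305 CPM on day 26 after PD1d/IL-2v/IL-33 ACT, and 93.1% of its 1021 UMIs there came from 5 of the 453 members. In the comparison with Pdcd1-positive Tox-zero cells that follows, Cd74 passed the test at a log2 fold change of 0.97 (edgeR adjusted p = 0.0165) although it was higher in 3 libraries and lower in 3. It was at 0.37 without day 26, at -0.39 without cells over 20000 UMIs, and past the threshold in neither. Doublets were not removed, and their part in these values was not tested.

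The first comparison asked what distinguishes co-positive cells from CD8+ T cells that carried Pdcd1 but no Tox UMI. UMIs were summed per class within each library, and 6 libraries with at least 20 cells of both classes were compared as pairs with edgeR's quasi-likelihood test (802 against 897 cells). Of 5827 genes, 75 were higher in co-positive cells (1.29%) and 96 were lower (1.65%) at an adjusted p under 0.05. Higher genes included 4 inhibitory receptors and 6 factors linked to exhaustion. Lower genes included Gzma, 4 naive and stem-like genes, 6 residency and migration genes and 7 interferon-stimulated genes. The members held more UMIs per cell than the comparator, with medians of 6693 and 5442.5 over all libraries, and when the comparator was matched on UMIs 36 genes were higher and 40 lower. The counts were 9 and 7 with the rule applied after thinning, 21 and 39 with DESeq2, and 27 and 46 without day 26 after PD1d/IL-2v/IL-33 ACT. The matching left gaps on day 5 after untransduced ACT, where the medians were 7613 and 5072, and on day 26 after PD1d/IL-2v/IL-33 ACT, where they were 5933 and 4947.

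The genes with the largest rises in all 6 libraries were Slc22a15, Adgrg1, Gldc and Ppic. Slc22a15, a solute carrier, lay between 23.3 and 36.3 CPM in co-positive cells (median 28.1) and between 4.35 and 11.5 CPM in Pdcd1-positive Tox-zero cells (median 9.21), with no overlap. Its log2 fold change was 1.93 ± 0.24 (SE, n = 6 libraries, edgeR adjusted p = 0.000122). Adgrg1, an adhesion G-protein-coupled receptor of cytotoxic lymphocytes, lay between 16.1 and 37.9 CPM against 2.22 to 12.1 CPM, again with no overlap, with a log2 fold change of 1.80 ± 0.26 (edgeR adjusted p = 0.000488). Gldc, which encodes a subunit of the mitochondrial glycine cleavage system, lay between 25.2 and 131 CPM against 2.77 to 61.5 CPM. Its ranges overlapped, but it was higher within each library, by 1.67 ± 0.25 (edgeR adjusted p = 0.000510). Ppic, cyclophilin C, rose by 1.65 ± 0.28 (edgeR adjusted p = 0.00154). All 4 were of low abundance, at no more than 131 CPM in members of any of the 6 libraries.

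Of 14 inhibitory receptors on a list for T cells, chosen with earlier results of these data known, 12 could be tested. Of these, 4 were higher in co-positive cells (Cd200, Lag3, Tigit and Entpd1) and 0 were lower, with a median log2 fold change of 0.51 over the 12, beside -0.00295 over all genes tested. Tigit, a receptor that competes with CD226 for shared ligands, lay between 219 and 538 CPM in members (median 382) and between 130 and 373 CPM in the comparator (median 228). It was higher in each library, by 0.70 ± 0.12 (edgeR adjusted p = 0.00134). Entpd1, the ectonucleotidase CD39, lay between 40.8 and 58.0 CPM against 25.8 to 36.2 CPM, and was higher by 0.60 ± 0.14 (edgeR adjusted p = 0.0209). Cd200 and Lag3, both among the genes that name these cells and so no independent evidence, had log2 fold changes of 1.51 and 0.82 and were higher in all 6 libraries. Havcr2, the receptor TIM-3, did not pass, at 0.58 ± 0.20 (edgeR adjusted p = 0.142), and Ctla4 was at 0.25 ± 0.15 (edgeR adjusted p = 0.513). With the comparator matched on UMIs, Cd200, Lag3 and Tigit kept their calls and Entpd1 did not.

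Of 16 transcription factors of exhaustion tested, 6 were higher and 0 lower (median 0.32). They were Ikzf2, encoding Helios, at 1.08 ± 0.21, Maf, Prdm1, encoding BLIMP-1, at 0.79 ± 0.17, Batf, an AP-1 partner of IRF4, at 0.75 ± 0.11, Nr4a2 at 0.71 ± 0.13 and Bhlhe40 at 0.32 ± 0.07. Batf lay between 105 and 212 CPM in members and between 73.7 and 125 CPM in the comparator, and was higher in all 6 libraries (edgeR adjusted p = 0.000510). Maf passed narrowly (edgeR adjusted p = 0.0489) and was higher in 5 of 6 libraries. Maf and Bhlhe40 lost their calls with the matched comparator. Of 20 antigen receptor response genes, 4 were higher (Nrn1, Rgs2, Dusp4 and Sh2d2a) and 0 lower. Nrn1 is among the genes that name these cells and so no independent evidence, and Sh2d2a lost its call with the matched comparator. Rgs2, an inhibitor of G-protein signalling, rose by 0.81 ± 0.13 and the phosphatase gene Dusp4 by 0.78 ± 0.17. Both were higher in 6 of 6 libraries.

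On the list of naive and stem-like genes, 4 of 13 tested were lower in co-positive cells (S1pr1, Il7r, Klf2 and Satb1) and 0 were higher (median -0.28). Satb1 lost its call with the matched comparator. S1pr1, the sphingosine-1-phosphate receptor by which lymphocytes leave tissues, lay between 2.27 and 41.0 CPM in members (median 13.7) and between 8.89 and 97.0 CPM in Pdcd1-positive Tox-zero cells (median 51.1). It was lower in all 6 libraries, at -1.37 ± 0.17 (edgeR adjusted p = 0.000122). Il7r, the IL-7 receptor chain of long-lived T cells, was at -0.88 ± 0.16 (edgeR adjusted p = 0.00204) and lower in all 6 as well. The stem-like factor gene Tcf7 did not pass, at -0.22 ± 0.15 (edgeR adjusted p = 0.594), nor did Slamf6, at 0.04 ± 0.15 (edgeR adjusted p = 0.968).

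Of 14 residency and migration genes, 6 were lower (Ly6c2, Ccr2, Itgb7, Cxcr3, Cxcr4 and Itgb1) and 1 was higher, Cxcr6, a chemokine receptor of tissue-resident T cells (0.30 ± 0.07). Ly6c2, a surface protein of effector and memory CD8+ T cells, lay between 351 and 765 CPM in members (median 520) and between 698 and 1706 CPM in the comparator (median 984). It was lower within every library, at -1.01 ± 0.09, with the smallest adjusted p of all genes (edgeR, 5.50e-07). Ccr2 was at -0.95 ± 0.15 (edgeR adjusted p = 0.00104) and the gut-homing integrin chain Itgb7 at -0.80 ± 0.12 (edgeR adjusted p = 0.000510). These 3 kept their calls with the matched comparator, while Cxcr3, Cxcr4, Itgb1 and Cxcr6 did not.

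Among 17 cytotoxic effector genes, Gzma, granzyme A, stood out. It was at 23.2 CPM in members after untransduced ACT on day 5, against 163 CPM in Pdcd1-positive Tox-zero cells of the same library. On day 5 after PD1d/IL-2v/IL-33 ACT it was at 263 against 2547 CPM, on day 12 at 401 against 621 CPM, and on day 26 at 268 against 716 CPM. It was at 320 against 882 CPM with PD1d/IL-2v and at 456 against 917 CPM with PD1d/IL-33. Every library showed the lower level, at -1.63 ± 0.21 on the log2 scale (edgeR adjusted p = 0.000122). Gzma was uneven among members, of whom 70 of 453 carried it on day 26, and on day 12 after PD1d/IL-2v/IL-33 ACT 5 of 51 members held 94.9% of its UMIs. Klrc1 and Klrk1, lectin-like receptors shared with NK cells, were also lower, at -0.42 ± 0.09 and -0.37 ± 0.09. Prf1, perforin, was higher by 0.47 ± 0.10 (edgeR adjusted p = 0.0151). Klrk1 and Prf1 lost their calls with the matched comparator. Gzmb, at -0.23 ± 0.15, and Gzmk, at -0.11 ± 0.10, did not pass.

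Of 13 interferon-stimulated genes, 7 were lower, among them Ifitm2, Ifit3, Ifit1 and Isg15, and 0 higher, with a median of -0.72. Ifit3, a translation inhibitor induced by type I interferon, was at -1.07 ± 0.25 (edgeR adjusted p = 0.0192) and lower in all 6 libraries. Ifitm2 was at -1.91 ± 0.25 and lower in 5 of 6. Of the 5 genes with a value against the matched comparator, 3 kept their calls, Rtp4 and Ifitm2 among them, while Isg15 and Isg20 did not. No call of this list was kept once the rule was applied after thinning, where 3 of the genes had a value.

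Of 8 cytokines and chemokines, Ccl4 alone passed, with a median log2 fold change of 0.53 over the 8. It was at 0.98 ± 0.22 (edgeR adjusted p = 0.0165, higher in 4 of 6 libraries), and lost its call with the matched comparator. Of 10 costimulatory receptors, Crtam alone passed (0.58 ± 0.14). Among 15 cytokine receptor and feedback genes, Il10ra (0.77 ± 0.13) and Il21r (0.48 ± 0.12) were higher and Il12rb2 (-0.74 ± 0.17) and Ifngr1 (-0.38 ± 0.07) lower. With the matched comparator Crtam, Il21r, Il12rb2 and Ifngr1 lost their calls. Il2ra, the CD25 chain that IL-2v does not bind, was at -0.47 ± 0.17 (edgeR adjusted p = 0.197), and Il2rb, the signalling chain it does use, at 0.23 ± 0.09 (edgeR adjusted p = 0.211). By edgeR, 0 of 15 cell cycle genes, 0 of 12 glycolysis genes and 0 of 76 respiratory chain genes passed, with 1, 3 and 5 at an unadjusted p under 0.05. Of 11 survival genes, 1 was lower, the pro-apoptotic Bcl2l11 (-0.46 ± 0.10), which lost its call with the matched comparator. Of 99 ribosomal protein genes, 2 were higher, Rps26 and its near copy Rps26-ps1, between which reads may be split.

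**Figure D2:**
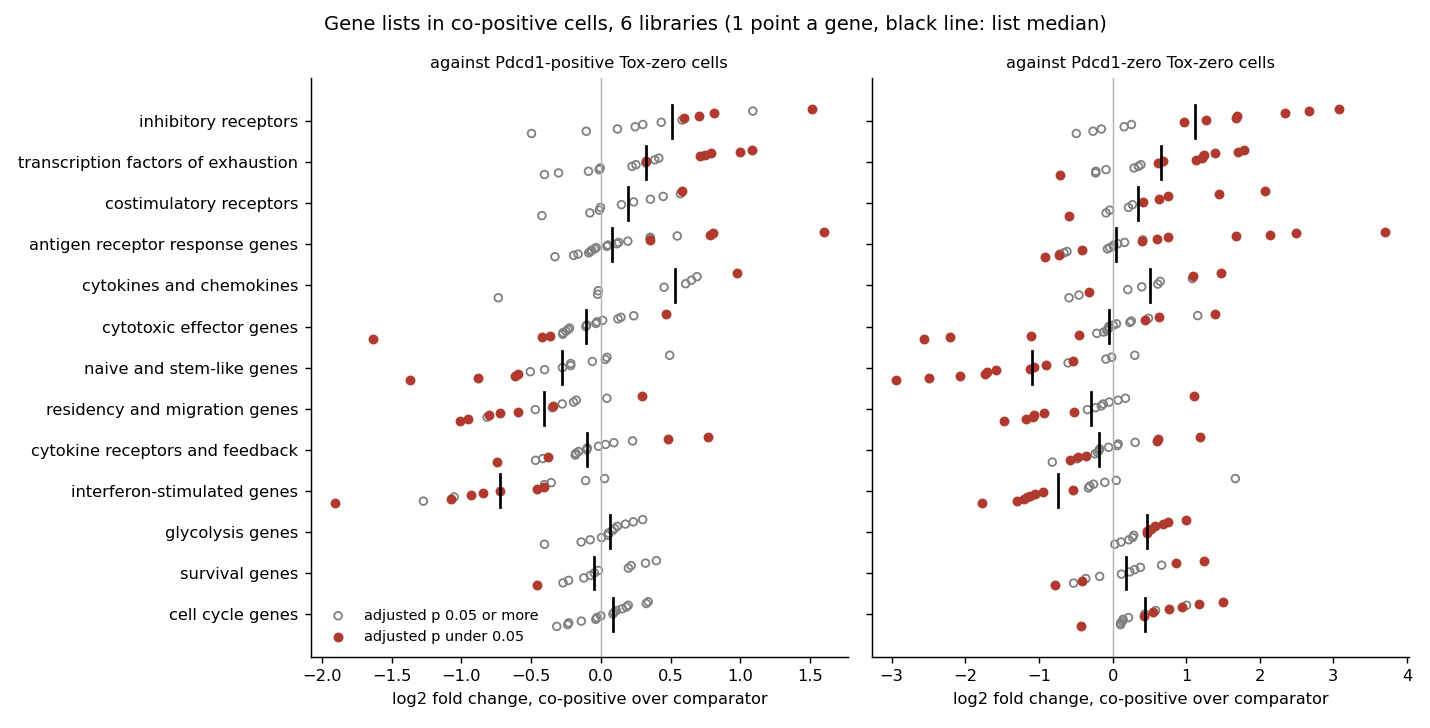
Log2 fold change of each tested gene of 13 lists, co-positive cells over Pdcd1-positive Tox-zero cells on one side and over Pdcd1-zero Tox-zero cells on the other (6 libraries, edgeR). Each point is a gene, filled where the adjusted p is under 0.05, and the black lines are list medians. The median of the inhibitory receptors lies to the right of 0 in both panels, at 0.51 and 1.12, with 4 and 7 of 12 genes filled, and that of the interferon-stimulated genes to the left, at -0.72 and -0.74.

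The second comparison set co-positive cells against CD8+ T cells with neither a Pdcd1 nor a Tox UMI (802 against 1700 cells, the same 6 libraries). It shares its co-positive cells with the first. Of 6657 genes, 493 were higher (7.41%) and 484 lower (7.27%). With the comparator matched on UMIs the counts were 295 and 341, while the median UMIs on day 5 after untransduced ACT remained 9238 against 5343 and those for PD1d/IL-33 6598 against 5031.5. The counts were 86 and 59 with the rule applied after thinning and 284 and 267 with DESeq2. Among the genes that passed were 7 of 12 inhibitory receptors, 5 of 10 costimulatory receptors and 7 of 12 glycolysis genes that were higher, 1 costimulatory receptor that was lower, and 10 of 14 naive and stem-like genes and 8 of 14 interferon-stimulated genes that were lower.

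The largest rises were Gldc at 4.17 ± 0.37, Nrgn, which encodes the calmodulin-binding protein neurogranin, at 3.90 ± 0.49, Areg, the growth factor amphiregulin, at 3.89 ± 0.30, Nrn1 at 3.70 and Tnfsf4, the ligand OX40L, at 3.48 ± 0.30. Gldc had a median of 46.2 CPM over the 6 libraries in members and of 0.242 CPM in cells with neither gene, where it was at 0 in 3 libraries. Areg had a median of 37.0 CPM in members and 4.36 CPM in cells with neither gene, but 110 CPM in Pdcd1-positive Tox-zero cells. Adgrg1 (3.46), Slc22a15 (3.31), Cd200 (3.07), the phosphatase gene Dusp14 (3.07) and Penk, encoding proenkephalin (3.06), followed. All 10 were higher in 6 of 6 libraries. Nrn1 and Cd200 are among the genes that name these cells and so no independent evidence. Penk was carried by few cells, 1 of 51 members on day 5, 6 of 51 on day 12 and 29 of 453 on day 26 after PD1d/IL-2v/IL-33 ACT. It was found in 9 of 62 after PD1d/IL-2v ACT, 2 of 80 after PD1d/IL-33 ACT and 9 of 105 after untransduced ACT on day 5. In these 6 libraries the 5 highest members held from 74.9% to 100% of its UMIs. The fitted sizes of genes so near 0 in the comparator depend on the model's prior.

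Of 12 inhibitory receptors, 7 were higher (Cd200, Lag3, Havcr2, Tigit, Ctla4, Cd244 and Entpd1) and 0 lower, with a median of 1.12 beside -0.0252 over all genes. Havcr2 lay between 53.5 and 142 CPM in members and between 2.21 and 33.6 CPM in cells with neither gene, and was higher by 2.34 ± 0.34 (edgeR adjusted p = 0.000317). Ctla4 was higher by 1.67 ± 0.21. All 7 kept their calls with the matched comparator. Of 16 transcription factors, 9 were higher (Nr4a2 at 1.78, Maf at 1.71, Prdm1 at 1.40, Ikzf2 at 1.24, Rbpj, Bhlhe40, Batf, Nr4a3 and Hif1a) and 1, Nfatc2, was lower. Nr4a3 and Nfatc2 lost their calls with the matched comparator. Of 10 costimulatory receptors, 5 were higher. Tnfrsf4, the receptor OX40, lay between 53.5 and 303 CPM against 19.5 to 92.3 CPM (2.07 ± 0.15, edgeR adjusted p = 7.81e-07), and Tnfrsf9, 4-1BB, was higher by 1.45 ± 0.16. Slamf7 was lower, at -0.59 ± 0.15.

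Of 14 naive and stem-like genes, 10 were lower and 0 higher (median -1.10). S1pr1 was at -2.50 ± 0.31, Klf2, a factor that drives S1pr1, at -2.07 ± 0.30, Il7r at -1.71 ± 0.15 and Lef1 at -1.59 ± 0.24. Tcf7 was at -1.12 ± 0.21 (edgeR adjusted p = 0.00187) and lower in 5 of 6 libraries, the exception being day 5 after PD1d/IL-2v/IL-33 ACT with 138 against 135 CPM. Ccr7, at -0.01 ± 0.21, and Slamf6, at -0.09 ± 0.18, did not pass.

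Cytotoxic genes were divided. Prf1 was higher by 1.38 ± 0.18, and Nkg7 and Tnfsf10, encoding TRAIL, by 0.44 and 0.63. Gzmm was lower, at -2.56 ± 0.24, as were Gzma at -2.21 ± 0.24, Klrg1 at -1.11 ± 0.27 and Ctsw at -0.45 ± 0.13. Gzmb was at -0.12 ± 0.19 and Gzmk at -0.05 ± 0.20, and neither passed. Of 10 cytokines and chemokines, Ccl3 (1.47 ± 0.35) and Ifng (1.09 ± 0.33) were higher in 5 of 6 libraries and Ccl5 was lower (-0.32 ± 0.09). The Ifng and Ccl3 sums rested on few members in some libraries. Of 51 members, 5 held 98.4% of the Ifng and 92.3% of the Ccl3 UMIs on day 5 in the PD1d/IL-2v/IL-33 library, and 5 of 62 held 79.9% and 71.7% with PD1d/IL-2v. With the matched comparator Tnfsf10, Klrg1, Ifng and Ccl5 lost their calls. Of 14 interferon-stimulated genes, 8 were lower and 0 higher, with Ifit3 at -1.78 ± 0.26. Of 12 glycolysis genes, 7 were higher and 0 lower, with Gapdh at 0.69 ± 0.11 and Pgk1 at 0.75 ± 0.15, and 13 of 77 respiratory chain genes were higher. Although Mki67 was at 0 by the rule, 6 of 15 cell cycle genes were higher, among them Top2a at 0.94 ± 0.16, and Tubb5 was lower. On the remaining lists, 7 of 20 antigen receptor response genes were higher and 3 lower, 1 of 14 residency genes was higher (Cxcr6, 1.10 ± 0.21) and 6 lower, 3 of 16 cytokine receptor genes were higher and 3 lower, and 3 of 99 ribosomal protein genes were higher and 6 lower.

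**Figure D3:**
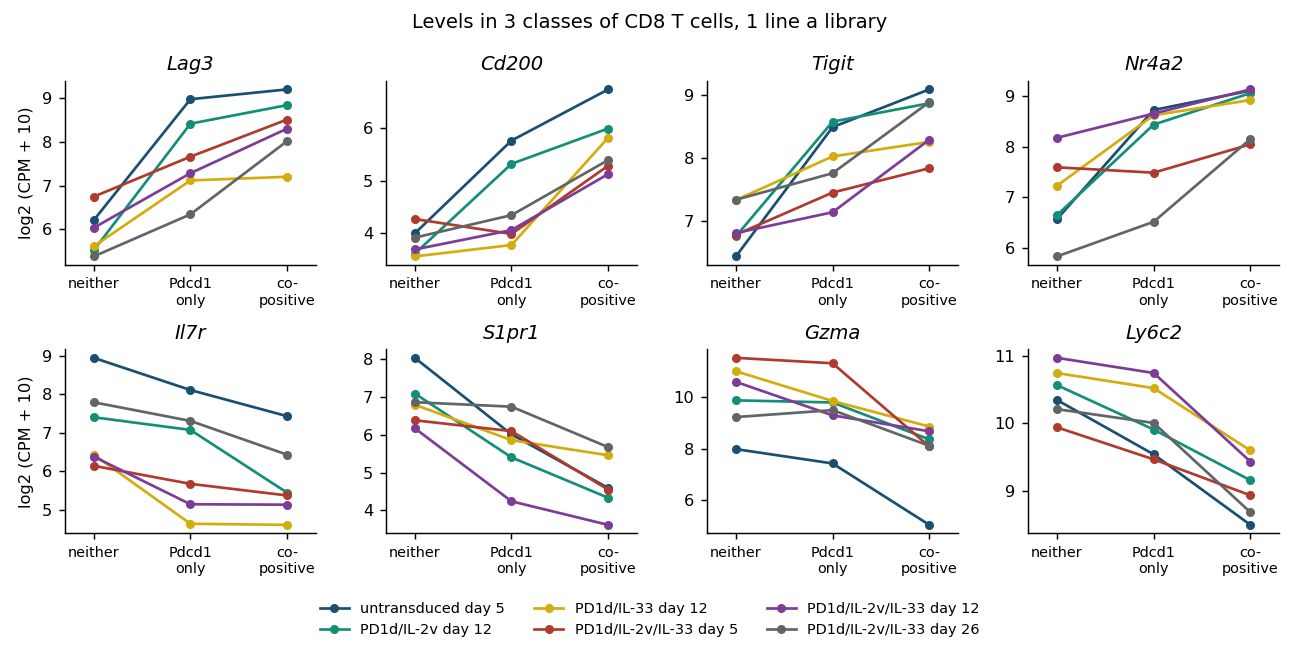
Levels of 8 genes in cells with neither Pdcd1 nor Tox UMIs, in Pdcd1-positive Tox-zero cells and in co-positive cells, as log2 of CPM plus 10, with 1 line for each of 6 libraries. Lag3, Cd200, Tigit and Nr4a2 rise toward the co-positive cells, while S1pr1, Gzma and Ly6c2 fall in every library between the Pdcd1-positive Tox-zero and the co-positive cells.

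Co-positive cells were not uniform in Tcf7 and Havcr2, genes that the rule did not use. This split was chosen after values had been seen and is given without a test. Over all members, 233 had a Tcf7 UMI and none of Havcr2 (28.0%), 228 had Havcr2 and no Tcf7 (27.4%), 9 had both (1.08%) and 361 had neither (43.4%). A Havcr2 UMI was found in 9 of 242 members with Tcf7 (3.72%) and in 228 of 589 without it (38.7%). Members with Havcr2 alone had a median of 9029 UMIs over all libraries, against 6693 for those with Tcf7 alone. Within libraries the order was the opposite on day 12 after PD1d/IL-33 ACT (6981 against 7642.5) and, for PD1d/IL-2v/IL-33, with medians of 7750.5 and 8109.

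The balance of the 2 groups varied by library. On day 26 after PD1d/IL-2v/IL-33 ACT, 35.5% of members had Tcf7 alone and 21.0% Havcr2 alone. The order was the opposite after untransduced ACT on day 5, with 20% and 44.8%, and after PD1d/IL-2v ACT, with 16.1% and 40.3%. It was 25.5% and 35.3% on day 5 and 13.7% and 31.4% on day 12 after PD1d/IL-2v/IL-33 ACT, 20% and 22.5% after PD1d/IL-33 ACT, and 20.8% and 29.2% in non-treated tumors. After thinning, day 26 had 18.8% and 7.73%, and untransduced ACT on day 5 had 6.67% and 21.0%, so these 2 libraries kept their opposite order at equal depth. The order of day 5 after PD1d/IL-2v/IL-33 ACT turned, to 15.7% and 7.84%, and that of 2 more libraries was lost, with 5.88% of either kind on day 12 after PD1d/IL-2v/IL-33 ACT and 16.7% of either kind in non-treated tumors.

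**Figure D4:**
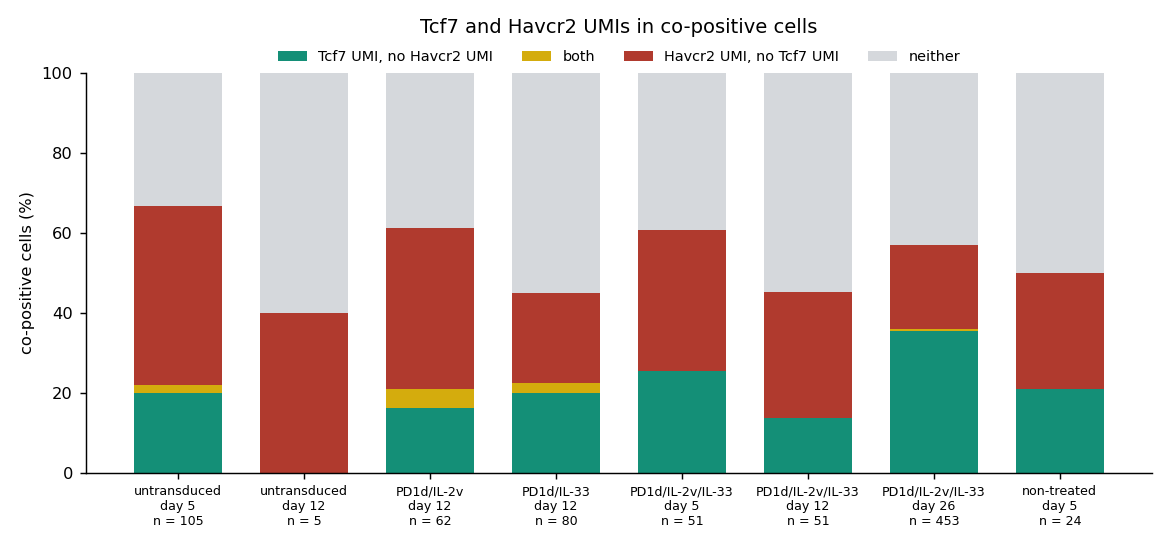
Percent of co-positive cells with UMIs of Tcf7 alone, of both genes, of Havcr2 alone and of neither, stacked for each of the 8 libraries with the number of members below. Tcf7 alone is larger than Havcr2 alone on day 26 (35.5% and 21.0%) and smaller after untransduced ACT on day 5 (20% and 44.8%).

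In the 5 libraries with at least 10 members of either kind, members with Tcf7 alone were higher than those with Havcr2 alone in Ccr7 (median log2 ratio 2.46), Slamf6 (2.41, from 0.77 to 4.32), Il7r (2.33), S1pr1 (1.67), Cxcr3 (1.58) and Lef1 (1.34), in each case in 5 of 5. They were lower in 5 of 5 in the chemokine genes Ccl4 (-5.07) and Ccl3 (-4.21), in Prf1 (-3.33), Cxcr6 (-2.84), Ifng (-2.79), Gzmb (-2.70), Rgs16 (-2.35), Prdm1 (-2.33), Tnfrsf9 (-2.29), Entpd1 (-2.14) and Lag3 (-1.43). The residency receptor Cxcr6 and the lymphoid homing receptor Ccr7 thus lay on opposite sides of the split. The chemokine and Ifng sums rested on few members in some libraries. On day 5 after PD1d/IL-2v/IL-33 ACT, 5 of 51 members held 98.4% of the Ifng, 92.3% of the Ccl3 and 92.0% of the Ccl4 UMIs. After PD1d/IL-33 ACT, 5 of 80 held 86% of the Ccl4 UMIs. Tox, for which every member was selected, had a median of -0.32 (from -0.86 to -0.11). Cd200, at 0.04, and Nrn1, at 1.08, had no common direction.

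The granzyme-expressing CD8+ T cells, with at least 3 UMIs of Gzmc to Gzmg and no Mki67, were numerous enough for a comparison in 1 library, day 12 after PD1d/IL-2v/IL-33 ACT (81 cells against 51 co-positive cells). They were taken whatever their Pdcd1 and Tox UMIs, so some can carry both genes, as 11 such cells did over all libraries. There is no replicate, and the ratios carry counting error only. Co-positive cells were higher in 4 chemokine genes. Ccl5 was at 6563 CPM against 210 CPM, a log2 ratio of 4.96 (4.78 to 5.16), Ccl4 at 1309 against 92.7 CPM, Ccl3 higher by a log2 ratio of 3.05 and Xcl1 at 381 against 26.5 CPM. Of the last 3, 5 of 51 members held 79.8%, 75.4% and 88.7% of the UMIs, and Xcl1 was found in 13 members. Ccl1 was at a log2 ratio of -0.44 (-1.21 to 0.27), and Spp1 and Csf2 were lower in co-positive cells, at -2.55 and -2.07. Co-positive cells were also higher in Ccr7 (3.10), Gzmk (2.83), Tigit (2.64), Nr4a2 (1.83) and Lag3 (1.43, 1.08 to 1.78). They were lower in Ifitm1, an interferon-induced membrane protein gene, by a log2 ratio of -7.73 (-9.61 to -6.37), in Gzmb at 478 against 2406 CPM (-2.33), in Gzma at 401 against 1858 CPM (-2.21), and in Ly6c2 at 682 against 1641 CPM. Havcr2 was lower in co-positive cells here, at 63.4 against 107 CPM (-0.75, -1.40 to -0.15). The NK cell markers Klrb1c (-3.28, from 2 and 53 UMIs) and Klre1 (-1.50) and the dendritic cell marker Cd74 (-1.19) were also lower in co-positive cells. Tnfsf11 was at -0.25 (-0.88 to 0.34). The part of such markers in these differences was not tested. The granzyme cells were deeper, with a median of 14897 UMIs against 7836.

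Finally, co-positive cells were compared between libraries, on ratios of CPM after 10 CPM were added, for genes with at least 50 UMIs in both libraries together. With 1 library for each condition and day, no test was run, and "called" means a log2 ratio of at least 1 or at most -1. In each of these 4 comparisons the libraries also differed in a code deposited with them, whose meaning is not stated. Condition and whatever that code stands for cannot be told apart. Members carried unequal amounts of the cytokine transcripts, so sums can rest on few cells, and the number of members behind a value is given for several of them. Counting intervals do not cover that.

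On day 5, co-positive cells after PD1d/IL-2v/IL-33 ACT (51) were compared with those after untransduced ACT (105). Of 3632 genes, 118 were higher (3.25%) and 168 lower (4.63%), and the median over all genes was -0.11. Gzma was at 263 CPM against 23.2 CPM (118 and 23 UMIs), and was found in 16 of 51 members (31.4%) against 14 of 105 (13.3%), with 84.8% of the higher sum in 5 members. Over the 17 cytotoxic genes compared, 3 were higher and 7 lower, with a median of -0.62. Ifng was at 1285 CPM against 164 CPM. In the PD1d/IL-2v/IL-33 library, however, 98.4% of the 576 Ifng UMIs lay in 5 members and 11 of 51 had any (21.6%), while 42 of 105 had any after untransduced ACT (40.0%). Nrn1 was lower, at 13.4 against 218 CPM (-3.28), and so was Cd74, at 8.92 against 176 CPM (-3.30), where 5 members held 72% of the higher sum. Csf1 and Spp1, encoding a macrophage growth factor and osteopontin, were lower as well (-2.87 and -2.55), and 5 of 105 members held 90.5% of the 74 Spp1 UMIs after untransduced ACT. The heat shock gene Hspa1a was at 0 in 51 members against 70 UMIs in 5 of 105. Of 10 inhibitory receptors compared, 4 were lower and 0 higher, with a median of -0.83, among them Tigit at 219 against 538 CPM. The NK cell marker Klre1 (-1.12) and Tnfsf11, a marker of regulatory and CD4 T cells (-1.62), were lower too. The part of such markers in these differences was not tested. Of 9 cytokine and chemokine genes, 5 were higher and 3 lower. The sums of Ccl3, Ccl4 and Ccl1 in the PD1d/IL-2v/IL-33 library also lay mostly in 5 members (92.3%, 92.0% and 100%), and fewer members carried them than after untransduced ACT, 29.4% against 34.3% for Ccl3, 37.3% against 59.0% for Ccl4 and 7.84% against 11.4% for Ccl1.

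On day 12, co-positive cells after PD1d/IL-2v/IL-33 ACT (51) were compared with those after PD1d/IL-2v ACT (62). Of 2737 genes, 60 were higher (2.19%) and 147 lower (5.37%), with a median of -0.23 over all genes. With TMM factors the split was 102 higher and 94 lower, so the excess of lower genes depended on the scaling. Of 8 cytokine genes, 5 were lower and 0 higher, with a median of -1.79 (-1.68 with TMM factors). The dendritic cell marker Cd74 (-2.02) and the NK cell marker Klre1 (-1.93) were lower as well. Tnfsf11, a marker of regulatory and CD4 T cells, was at 0.62. The part of such markers in these differences was not tested. Xcl1, a chemokine for cross-presenting dendritic cells, was at 381 against 4741 CPM, and was found in 13 of 51 members (25.5%) against 35 of 62 (56.5%). Ifng was at 106 against 1290 CPM, in 20 of 51 members (39.2%) and 36 of 62 (58.1%). After PD1d/IL-2v ACT, 5 members held 80.2% of the Xcl1 and 79.9% of the Ifng UMIs. Ifitm1 showed the largest ratio (-4.83), but 99.7% of its 367 UMIs came from 5 members. Myc was lower at -2.60 and the receptor gene Cd160 at -2.37, at 65.7 against 380 CPM. Penk was higher, at 260 against 31.9 CPM, with 99.1% of its UMIs in 5 of 51 members.

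Against PD1d/IL-33 ACT on day 12 (80 members), 36 of 2373 genes were higher in the PD1d/IL-2v/IL-33 library (1.52%) and 54 lower (2.28%), with a median of -0.11. With TMM factors the split was 46 and 41. Gzmk, the granzyme of effector memory cells, was lower at 88.3 against 471 CPM (-2.29), and its detection was 37.3% against 82.5% of members. Ccr2 was lower at 31.7 against 144 CPM. The NK cell marker Klre1 was lower too (-1.71), and its part in these differences was not tested. Ccr7 was higher at 170 against 21.4 CPM, and Ccl3 at 598 against 130 CPM, found in 37.3% and 21.3% of members, with 75.4% and 80.8% of the UMIs in 5 members. Lag3 was higher at 306 against 137 CPM. Spp1 was at 116 against 3.57 CPM, in 11 of 51 members and 1 of 80. Both day 12 comparisons use the same PD1d/IL-2v/IL-33 library.

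Between day 12 and day 26 after PD1d/IL-2v/IL-33 ACT (51 and 453 members), 396 of 6338 genes were higher on day 26 (6.25%) and 138 lower (2.18%), with a median of 0.19. With TMM factors the counts were 313 and 199. Gzmk was higher on day 26, at 683 against 88.3 CPM (2.82), and was found in 83.2% of members against 37.3%, with 4.69% of its UMIs in the 5 highest members, so this difference was spread over the cells. Naive and stem-like genes were mostly higher, 7 of 13 with 2 lower and a median of 1.20 (1.18 with TMM factors), Tcf7 among them at 101 against 29.4 CPM and S1pr1 at 41.0 against 2.27 CPM, the latter from 1 UMI. Of 12 interferon-stimulated genes, 5 were higher and 0 lower, and 4 of 14 residency genes were higher, led by Cxcr3. The dendritic cell markers Cd74, H2-Aa and H2-Ab1 were higher too (3.49, 2.45 and 1.79), as was the macrophage marker Cd68 (1.04), and their part in these differences was not tested. Nrn1 was at 63.7 against 6.79 CPM. Lower on day 26 were Plac8 (128 against 661 CPM), Kdm6b, encoding a histone demethylase (20.3 against 170 CPM), Fosl2 and the nuclear receptor gene Nr4a3 (41.9 against 206 CPM), together with the glycolysis genes Pgk1 and Hk2. The Tox level itself was 314 CPM on day 26 and 213 CPM on day 12, and that of Pdcd1 721 and 496 CPM.

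**Figure D5:**
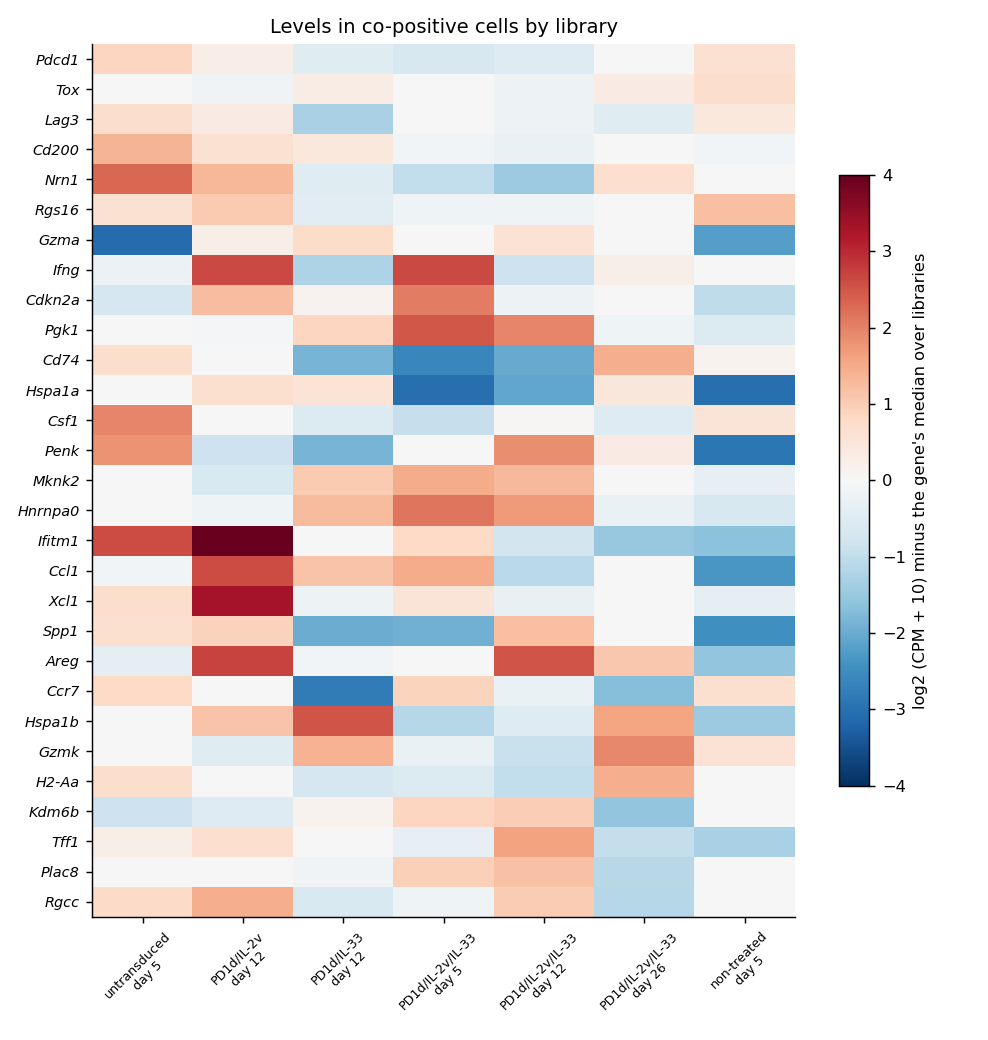
Levels of 29 genes in co-positive cells of the 7 libraries with at least 20 members, as log2 of CPM plus 10 minus the gene's median over the libraries (colour, limited to 4 in either direction). The 6 label genes come first, followed by the 4 genes with the highest and the 4 with the lowest ratio of each comparison between libraries. Nrn1 is highest after untransduced ACT on day 5 (218 CPM) and Xcl1 after PD1d/IL-2v ACT (4741 CPM).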

How the data were processed

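The authors counted UMIs per gene and barcode with Cell Ranger, aggregated 8 libraries and deposited the raw counts. The study's methods name version 4.0.0 and the submitters' processing notes 2.2.0, with build GRCm38. Barcodes per library are round numbers (400 to 3700), and totals ran from 1387032 to 24917112 UMIs. Limits on cells were 500 and 6000 genes, 2000 and 40000 UMIs, 5% and 60% ribosomal and 10% mitochondrial UMIs. No doublet caller was run. 143 barcode sequences occurred in more than 1 library, 9 of them members' barcodes. Paired tests used edgeR 4.0.16 (R 4.3.3) on UMIs summed per library and class, with library as a block, TMM, filterByExpr and Benjamini-Hochberg adjustment over all genes. The genes of the gate and rule were not tested. The p-values rest on how the difference between classes within a library varied over libraries of pooled mice, 1 per condition and day. They do not measure the spread between mice or between libraries of the same condition. Ratios between libraries used CPM after 10 were added. On simulated data the first test recovered 82% of genes changed by a log2 of 1 and the second 86%, with 2.92% and 3.87% false calls. Those counts were drawn from fitted means with 1 dispersion for all genes, 0.0088 and 0.0171. They held no spread particular to a gene and no sums resting on few cells. The rates of false calls in the real data were not measured and can be higher. Python 3.11.15, numpy 2.4.6, scipy 1.17.1, pandas 2.3.3 and matplotlib 3.10.9 were used. Thinning drew 2000 UMIs per cell (seed 1). The members and gene lists were chosen with earlier results of these data known. Genes were named as the label genes, the extremes of each list, the 10 highest and lowest called genes with 1 direction in every library, and the 8 highest and lowest ratios between libraries. Other members of the lists were named after their values were seen. Alternatives varied the test (DESeq2 1.42.0), count filter, block, thresholds, cell filter, depth and scaling. A few genes are not reported here. Gene positions and the study's other experiments were not analysed here.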

Additional observations from a re-analysis of the deposited data

Results flagged for a closer look

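Xcl1 differed between co-positive cells and cells with neither Pdcd1 nor Tox in opposite directions on day 5 and day 12. On day 5 it was lower in co-positive cells, at 758 against 2411 CPM after untransduced ACT and at 669 against 1415 CPM in the PD1d/IL-2v/IL-33 library. On day 12 it was higher, at 4741 against 1796 CPM after PD1d/IL-2v ACT, at 403 against 175 CPM after PD1d/IL-33 ACT and at 381 against 168 CPM in the PD1d/IL-2v/IL-33 library. The mean log2 ratio of day 5 minus that of day 12 was -2.59. All 5 of these libraries took the direction of their day, but the difference between days was not tested. On day 12 the 5 members with the most Xcl1 held 80.2%, 95.1% and 88.7% of its UMIs in these 3 libraries, and on day 5 they held 44.4% and 96.0%. Day 26 after PD1d/IL-2v/IL-33 ACT was outside this contrast, and Xcl1 was also higher in co-positive cells there. Non-treated tumors and untransduced ACT on day 12 were left out for having fewer than 20 cells of a class. The 5 members of the latter had 0 Xcl1 UMIs.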

How the results depend on the processing

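The share of co-positive cells, given as untransduced day 5, PD1d/IL-2v, PD1d/IL-33, PD1d/IL-2v/IL-33 day 5, day 12 and day 26, and all libraries, was 14.2%, 5.97%, 9.58%, 4.54%, 2.44%, 9.06% and 7.92% with at least 2 UMIs of both genes, and 20% in non-treated tumors. Without the Mki67 and granzyme conditions it was 39.7%, 17.5%, 28.7%, 16.9%, 10.0%, 25.3% and 23.1%, and after thinning 13.5%, 4.69%, 7.61%, 3.71%, 2.15%, 9.06% and 7.55%. The filter of the study's later experiment gave 10.2% for PD1d/IL-2v ACT. Against Pdcd1-positive Tox-zero cells, the 75 higher and 96 lower genes became 21 and 39 with DESeq2, 144 and 156 with no count filter, 36 and 40 with the matched comparator, 9 and 7 after thinning, and 45 and 38 with the later filter. Without the library block 1 and 0 genes passed (785 genes had an unadjusted p under 0.05 with it), so these calls rest on the pairing within libraries. Leaving out a library gave 27 to 74 higher and 46 to 87 lower, with 27 and 46 without PD1d/IL-2v/IL-33 day 26 and 62 lower without untransduced day 5. Against cells with neither gene, the 493 and 484 became 284 and 267 with DESeq2, 740 and 737 with no count filter, 126 and 113 without the block, 86 and 59 after thinning, 226 and 212 with the later filter, and 295 higher with the matched comparator. Leaving out a library gave 293 to 487 higher and 304 to 420 lower, with 293 and 304 without PD1d/IL-2v ACT and 314 higher without PD1d/IL-2v/IL-33 day 26. Of the named and listed genes called against Pdcd1-positive Tox-zero cells, 28 of 49 with a value kept direction and call with the matched comparator, 25 of 42 with DESeq2 (15 more had no adjusted p there) and 8 of 33 after thinning. Against cells with neither gene it was 83 of 97, 93 of 106 and 44 of 86. Under the alternatives 3 genes turned direction, none of them passing. One, after thinning, is not reported here. The others were Cd74 (-0.39 without cells over 20000 UMIs) in the first comparison and Ccl5 (0.014 with the later filter) in the second. The cause was not tested. Between libraries, a minimum of 10 UMIs gave 303 higher and 361 lower genes on day 5, 211 and 394 against PD1d/IL-2v ACT, and 166 and 230 against PD1d/IL-33 ACT. A pseudocount of 1 CPM gave 267 lower on day 5, and 885 higher and 244 lower for day 26 against day 12. TMM factors gave 102 higher and 94 lower against PD1d/IL-2v ACT, and turned the sign of the median of the naive and stem-like list on day 5 and of the respiratory chain list against PD1d/IL-33 ACT and for day 26. The thinned rule left too few members for comparisons between libraries, and the planned test against granzyme-expressing cells was not run, since 1 library had 20 cells of both. No paired analysis was possible between conditions because each has 1 library.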
